A study of Mus musculus with 3 samples.

Results

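*Ppp1r1b*, *Pde10a*, *Pde1b*, *Adcy5*, *Rgs9*, *Gnal*, *Gng7*, *Adora2a* and *Rarb* are 9 of the 32285 genes in the count matrices. They were listed for their part in cAMP and G protein signaling of striatal neurons, and their levels were followed across striatal-type neurons, cortical neurons and glia. Single nucleus RNA sequencing (snRNA-Seq) was performed on the prefrontal cortex (PFC) of male mice of 6 to 8 weeks, with 1 library per group. The C57BL/6J library was made from the pooled PFC of 5 wild-type mice. The *Nav1* KO library was pooled from 4 mice carrying a CRISPR deletion in the first exon of *Nav1* on the C57BL/6J background. The third library came from the inbred strain BTBR T<+> Itpr3<tf>/J (BTBR), whose count of pooled mice the sources used here do not state. Nuclei were sorted on a DNA stain and on NeuN, a neuronal nuclear protein. The methods, written for the C57BL/6J and *Nav1* KO libraries, state that NeuN-negative nuclei were collected beside a larger NeuN-positive part. This was done to cover different cell types, so the share of a class depends on that mix. The labels call the nuclei neurons, although glial and other non-neuronal clusters were present in every library.

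Because each group is 1 pooled library, no test between groups was possible. Intervals in brackets are exact at 95% and cover the counting error alone, and differences between the animals of a pool cannot be seen. The nuclei kept had at least 200 genes and under 10% mitochondrial counts, which left 14630 C57BL/6J, 14056 *Nav1* KO and 14777 BTBR nuclei with medians of 2074, 2754 and 2510 unique molecular identifiers (UMIs). The kept nuclei held 38704723 to 50965774 counts per library. Between 61 and 71 cell barcodes were shared by each pair of libraries, under 0.5% of the barcodes of either. *Nav1* itself was at 345 counts per 1000000 counts (CPM) in C57BL/6J, 264 CPM in *Nav1* KO and 146 CPM in BTBR. The libraries read the 3' end of transcripts, outside the deleted exon, so these values do not check the knockout.

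Medium spiny neurons, the projection neurons of the striatum, receive dopamine through D1 receptors, which raise cAMP, or through D2 receptors, which lower it. In these cells the olfactory type G protein Golf, whose α subunit is encoded by *Gnal* and whose γ subunit is encoded by *Gng7*, takes the place that Gs has in most of the brain, and it drives adenylyl cyclase 5 (*Adcy5*). The adenosine receptor encoded by *Adora2a* uses the same route in neurons with D2 receptors. Phosphodiesterases 10A and 1B (*Pde10a*, *Pde1b*) break down cyclic nucleotides, RGS9 (*Rgs9*) speeds GTP hydrolysis on inhibitory G proteins, and DARPP-32 (*Ppp1r1b*) is the target of protein kinase A that inhibits protein phosphatase 1. *Rarb* encodes a retinoic acid receptor, a transcription factor of the developing and adult striatum.

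In mm10, with a GENCODE annotation, *Ppp1r1b* (ENSMUSG00000061718) lies at chr11:98348404-98357796 on the plus strand and *Rgs9* (ENSMUSG00000020599) at chr11:109225355-109298129 on the minus strand. *Adora2a* (ENSMUSG00000020178) lies at chr10:75316877-75334784 on the plus strand and *Gng7* (ENSMUSG00000048240) at chr10:80948624-81014945 on the minus strand. *Rarb* (ENSMUSG00000017491) is on the minus strand at chr14:16430839-16819156, *Pde1b* (ENSMUSG00000022489) on the plus strand at chr15:103503034-103530052, *Adcy5* (ENSMUSG00000022840) on the plus strand at chr16:35154877-35305738 and *Pde10a* (ENSMUSG00000023868) on the plus strand at chr17:8525372-8986648. *Gnal* has the identifier ENSMUSG00000024524. All are protein coding. *Gnal* is the member with a counted gene on its own strand within its bounds (*Chmp1b*), so their reads can be confused. Genes on the other strand overlap *Ppp1r1b* (1700003D09Rik), *Pde10a* (Gm17087), *Gnal* (*Mppe1* and AC140336.1) and *Rarb* (*Top2b* and Gm48162).

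The *Rarb* promoter is shown because it holds the response element through which retinoic acid receptors are known to bind DNA. RefSeq promoter windows (GRCm38.p6, the mm10 assembly, 250 bases before to 50 bases after a start) were found for 6 of the 9 members, 10 windows in all. The 250 bases before the *Rarb* start at chr14:16575477-16575726, minus strand, read 5' to 3' with the direct repeat in capitals (GTTCA, any 6 bases and GTTCA again):
Rarb: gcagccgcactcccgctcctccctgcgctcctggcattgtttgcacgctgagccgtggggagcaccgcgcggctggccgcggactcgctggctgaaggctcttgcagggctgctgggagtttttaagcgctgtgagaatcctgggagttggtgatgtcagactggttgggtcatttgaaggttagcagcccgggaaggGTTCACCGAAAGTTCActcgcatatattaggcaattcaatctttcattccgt
The repeat starts at base -52 from the transcript start. On both strands it was in 25 of 32851 windows of the whole annotation (0.0761%), and among the member windows in that of *Rarb* alone. The full cAMP response element TGACGTCA was in 1.79% of all windows and in none of the 10 member windows. Its core TGACG, which is part of the full site, was in 20.8% of all windows and in 1 member window, that of *Gng7* at chr10:81001316-81001615. A match describes these letters and not a bound site.

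Nuclei were clustered within each library without the 9 members among the variable genes, and a cluster was called striatal-type from 16 markers that hold no member (among them *Drd1*, *Drd2*, *Tac1*, *Penk* and *Six3*). This gave 1838 striatal-type nuclei in C57BL/6J (12.6% of nuclei, 12–13.1), 446 nuclei in *Nav1* KO (3.17%, 2.89–3.48) and 713 nuclei in BTBR (4.83%, 4.49–5.18). At this clustering the C57BL/6J share exceeded the others by more than counting error. With finer clusters (resolution 2.0) the shares were 6.77% (6.37–7.19), 3.57% (3.27–3.89) and 3.93% (3.62–4.26). With coarser ones (resolution 0.5) the C57BL/6J share of 11.9% (11.4–12.4) and the BTBR share of 11.7% (11.1–12.2) were within counting error of each other. Genotype, strain, dissection and sort cannot be told apart with 1 library a group. Among the naming genes, *Drd1* was at 106, 180 and 122 CPM in striatal-type nuclei of C57BL/6J, *Nav1* KO and BTBR, against 15.4 to 23.8 CPM in cortical excitatory nuclei. The opioid peptide gene *Penk* was at 368, 507 and 370 CPM. As these genes named the class, their levels describe it and are no check of its label. The classes were not clean, since *Slc17a7*, the vesicular glutamate transporter of cortical excitatory neurons, was at 377, 351 and 322 CPM in striatal-type nuclei and at 367, 350 and 389 CPM in glia, against 698 to 911 CPM in cortical excitatory nuclei.

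At the resolution of 1.0 fixed for this work, the C57BL/6J striatal-type class was more mixed than those of the other libraries. At a resolution of 2.0 its main cluster split into 968 nuclei that kept the name, 493 unnamed nuclei with *Slc17a7* at 498 CPM and a median of 4721 UMIs, and 193 unnamed nuclei with *Slc17a7* at 319 CPM. *Ppp1r1b* was at 135 CPM in the first, 40.9 CPM in the second and 15.5 CPM in the third, and *Rgs9* at 769, 220 and 82.4 CPM. In *Nav1* KO 444 striatal-type nuclei stayed in 1 cluster at the finer resolution. The BTBR class also split, into 563 nuclei that kept the name and 115 unnamed nuclei. *Slc17a7* was at 265 CPM in the former and 442 CPM in the latter, *Ppp1r1b* at 131 and 22.2 CPM and *Rgs9* at 772 and 133 CPM. At resolution 1.0 BTBR held a further cluster of 436 nuclei that was left unnamed, with a median of 8594 UMIs. It had *Pde10a* at 763 CPM, *Rgs9* at 125 CPM and *Slc17a7* at 635 CPM. A doublet score in the top 10% of the library was found in 18.1% of it, beside 24.9% of BTBR astrocytes and 5.19% of BTBR striatal-type nuclei. Because the C57BL/6J class was mixed, most member levels and ratios that rest on it are given first at resolution 1.0 and then at 2.0. The counts of members found together in a nucleus are given at 1.0 alone. So are the ratios of the pathway list and the search for genes most like the members.

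The 9 members were higher in striatal-type nuclei than in cortical excitatory neurons in all 3 libraries, by at least 2-fold in 27 of 27 comparisons. In the same comparison 3.61% of 13624 genes tested in C57BL/6J, 4.47% of 13171 in *Nav1* KO and 3.99% of 13124 in BTBR were at least 2-fold higher, where tested means at least 50 UMIs in both classes together. The median ratio of the members was 5.88 for C57BL/6J, 14.4 for *Nav1* KO and 8.95 for BTBR, beside medians of 1.03, 0.986 and 1.02 over all genes tested and of 8.65, 15.0 and 12.7 over the 16 markers that named the class. Over all classes named, each member was highest in striatal-type nuclei, with the exception of *Gng7* in C57BL/6J, which was at 66.8 CPM in 20 ensheathing glia nuclei from 2 UMIs (8.09–241). *Adora2a* had the highest ratio in C57BL/6J and *Nav1* KO and *Rgs9* in BTBR, and *Pde10a* and *Gnal* had the lowest in each library.

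**Figure D1:**
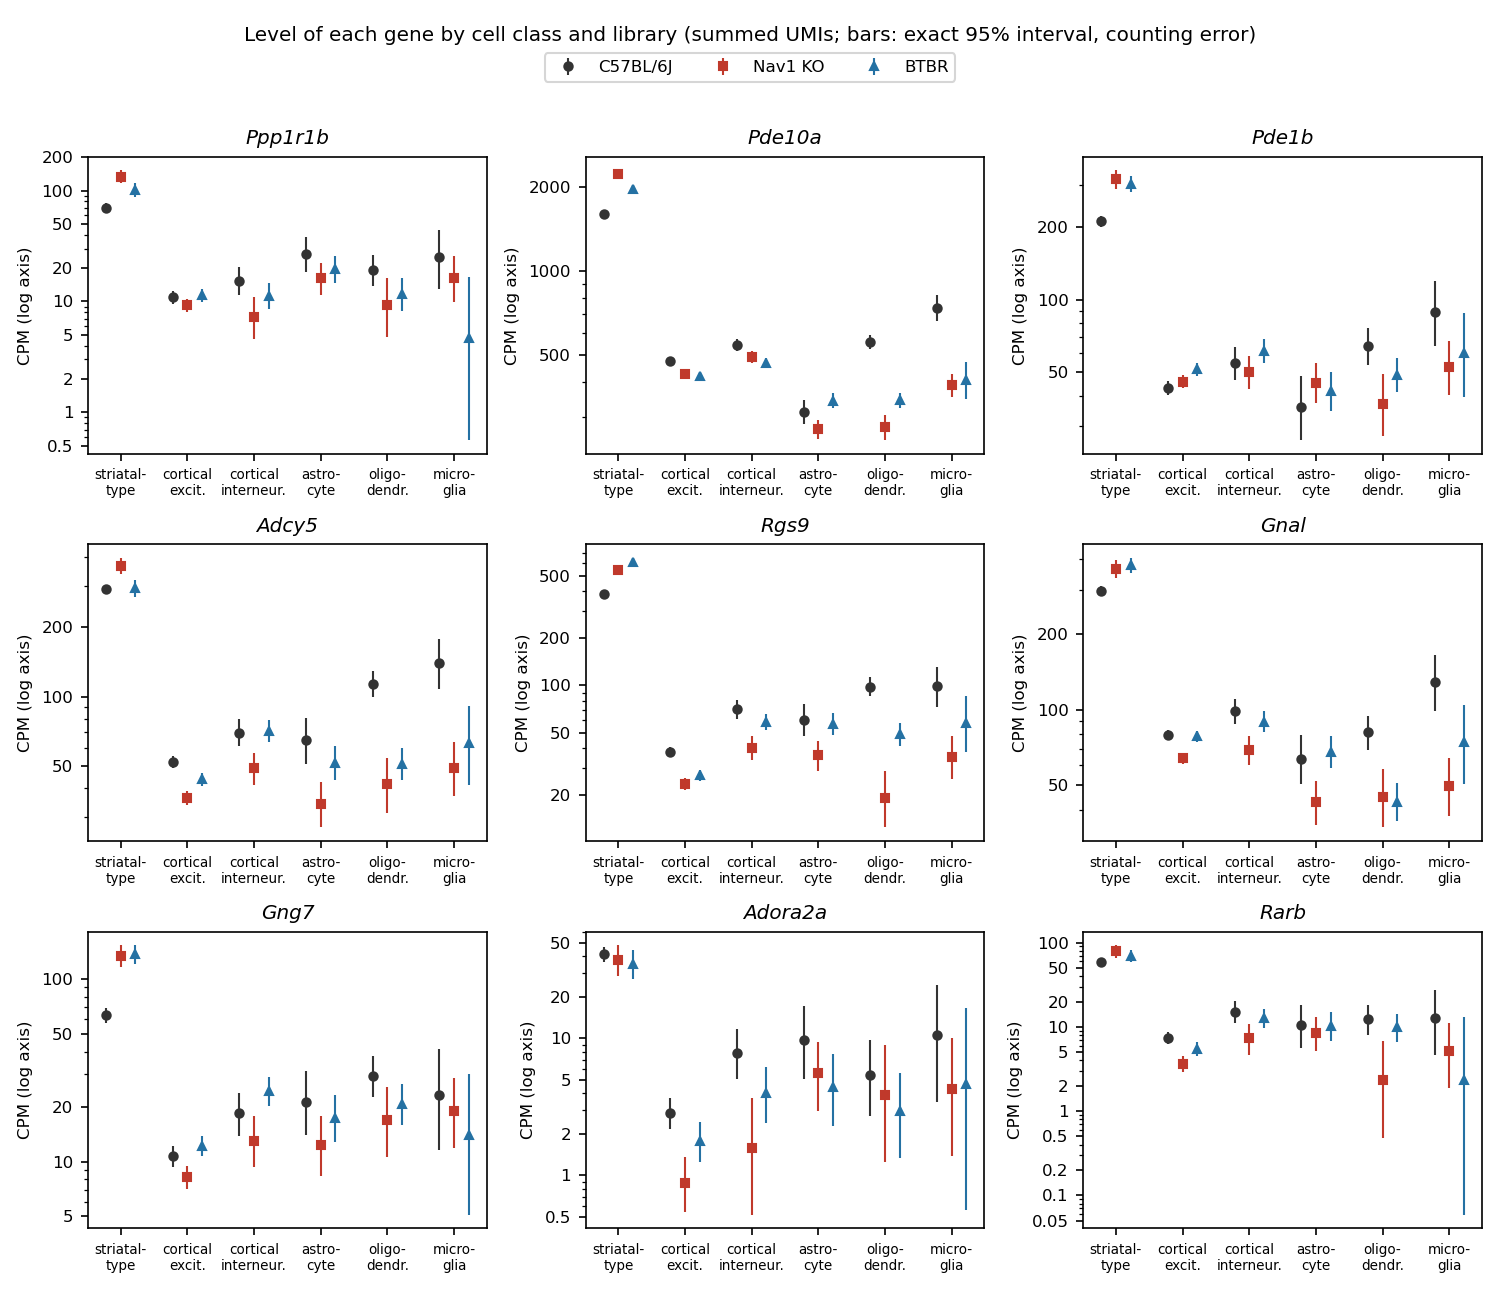
Level of each of the 9 genes (CPM, log axis, summed UMIs of a class over all UMIs of its nuclei) in 6 cell classes of the C57BL/6J, *Nav1* KO and BTBR libraries; bars are exact 95% intervals for counting error. In every panel the 3 points of the striatal-type class lie above those of the other 5 classes shown.

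The receptor of the list, *Adora2a*, was at 41.3 CPM in C57BL/6J striatal-type nuclei (36.5–46.6), 37.4 CPM in *Nav1* KO (28.6–48.1) and 35.0 CPM in BTBR (27.4–44.0). In cortical excitatory nuclei it was at 2.85, 0.885 and 1.78 CPM. The striatal-type *Adora2a* level was 14.5 times the cortical one in C57BL/6J (10.9–19.6), 42.3 times in *Nav1* KO (25.2–74) and 19.6 times in BTBR (13–30.1). The intervals of *Nav1* KO and C57BL/6J did not overlap, while those of the striatal-type levels did. At resolution 2.0 both statements turned. The striatal-type *Adora2a* level was then 86.0 CPM in C57BL/6J (73.9–99.4), above 34.8 CPM in *Nav1* KO (26.6–44.7) and 42.6 CPM in BTBR (32.9–54.4). The ratios to cortical excitatory nuclei were 27.6 (20.8–37), 36.8 (22.3–62.9) and 22.3 (14.9–33.6), with overlapping intervals.

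The G protein subunits stood apart from each other. *Gnal*, the α subunit of Golf, was at 297 (284–311), 364 (335–394) and 375 CPM (349–403) in striatal-type nuclei of C57BL/6J, *Nav1* KO and BTBR and at 79.2, 64.0 and 78.2 CPM in cortical excitatory nuclei, ratios of 3.75, 5.69 and 4.80. *Gng7*, the γ subunit, was at 63.1 (57.1–69.5), 134 (117–153) and 136 CPM (121–153) against 10.7, 8.23 and 12.2 CPM, ratios of 5.88, 16.3 and 11.1. *Gnal* thus kept a larger share of its striatal-type level in cortical neurons than *Gng7* did, in each library. The striatal-type *Gng7* level of C57BL/6J lay below both other libraries without overlap of the intervals at this resolution. At resolution 2.0 *Gng7* was at 109 (95.5–124), 124 (108–142) and 169 CPM (149–191), so that the C57BL/6J interval overlapped that of *Nav1* KO and not that of BTBR. *Gnal* was then highest in C57BL/6J, at 525 CPM (494–557) against 345 (318–373) and 440 CPM (407–474).

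*Adcy5*, the cyclase, was at 291 CPM in C57BL/6J striatal-type nuclei (278–305), 368 CPM in *Nav1* KO (339–399) and 294 CPM in BTBR (271–318), with cortical excitatory levels of 52.1, 36.3 and 43.7 CPM. Its ratios were 5.60 (5.19–6.04), 10.1 (9.12–11.3) and 6.72 (6.05–7.46). Both phosphodiesterases were lower in ratio in each library. *Pde10a* had striatal-type levels of 1605, 2227 and 1971 CPM and cortical excitatory levels of 477, 426 and 419 CPM, which gave the smallest ratios of the list, 3.37 (3.27–3.46), 5.22 (5.03–5.43) and 4.70 (4.53–4.88). *Pde1b* was at 211 (200–223), 315 (288–343) and 302 CPM (279–327) against 42.9, 45.7 and 51.5 CPM, ratios of 4.92, 6.89 and 5.87. At resolution 2.0 the C57BL/6J ratios were 9.67 for *Adcy5* (8.90–10.5), 5.70 for *Pde10a* (5.51–5.88) and 8.52 for *Pde1b* (7.74–9.38), from striatal-type levels of 523, 2717 and 368 CPM. These levels were above those of *Nav1* KO at the same resolution, 350, 2094 and 298 CPM, without overlap of the intervals.

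*Rgs9* had levels of 383 (368–398), 546 (511–583) and 615 CPM (582–650) in striatal-type nuclei of C57BL/6J, *Nav1* KO and BTBR and of 37.8, 23.5 and 26.7 CPM in cortical excitatory nuclei. Its ratios of 10.1 (9.34–11), 23.2 (20.8–25.9) and 23.0 (20.8–25.5) were second to those of *Adora2a* in C57BL/6J and *Nav1* KO, and in BTBR the intervals of these 2 genes overlapped. *Ppp1r1b*, the phosphatase inhibitor, was at 70.1 (63.8–76.8), 133 (116–152) and 102 CPM (88.2–116) against 10.9, 9.24 and 11.3 CPM, ratios of 6.45, 14.4 and 8.95. *Rarb* was at 58.5 (52.7–64.7), 78.5 (65.5–93.4) and 69.0 CPM (58.1–81.3) against 7.39, 3.67 and 5.50 CPM, ratios of 7.91, 21.4 and 12.5. In the finer clusters the C57BL/6J striatal-type levels were 761 CPM for *Rgs9* (724–799), 135 CPM for *Ppp1r1b* (119–151) and 111 CPM for *Rarb* (97.3–126), with a ratio of 14.9 for *Rarb*. The order of the libraries thus depended on the resolution, since *Rgs9* was then at 509 CPM in *Nav1* KO and 755 CPM in BTBR.

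With the finer clusters, where striatal-type *Slc17a7* was at 189 CPM in C57BL/6J, 348 CPM in *Nav1* KO and 270 CPM in BTBR, the median ratio of the members to cortical excitatory neurons was 10.0, 13.5 and 11.2. The gap between C57BL/6J and the other libraries was thus narrower than at resolution 1.0. Without nuclei that carried a *Slc17a7* UMI, an alternative added after the data were seen, 9 of 9 members were again past 2-fold in each library.

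To compare single nuclei at a common depth, nuclei were randomly thinned to 1000 UMIs and shallower ones left out. This kept 1696, 432 and 662 striatal-type, 6978, 5833 and 5787 cortical excitatory and 939, 1258 and 1243 glial nuclei of C57BL/6J, *Nav1* KO and BTBR. A UMI of *Pde10a* was then found in 73.6%, 83.3% and 73.7% of striatal-type nuclei, 35.4%, 31.5% and 31.5% of cortical excitatory nuclei and 25.6%, 17.6% and 22.8% of glia. Unthinned, the striatal-type shares were 87.5%, 93.9% and 86.1%. The median striatal-type nucleus held 2342.5, 2886 and 2389 UMIs, and the medians of the glial classes ran from 1412 to 2942.5. *Ppp1r1b* was found in 8.02%, 14.4% and 10.6% of thinned striatal-type nuclei, against 1.03% to 1.11% of cortical excitatory nuclei and 1.67% to 1.81% of glia. With the clusters of resolution 2.0 the thinned striatal-type shares were 87.8%, 78.5% and 80.8% for *Pde10a* and 12.8%, 14.0% and 13.9% for *Ppp1r1b*. The share in striatal-type nuclei was above the glial share for every member. The *Ppp1r1b* share in cortical excitatory nuclei as a whole was below the glial share, and no expression is read from it.

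At least 3 of the 9 members were found together in 39.3%, 46.1% and 45.3% of the thinned striatal-type nuclei of C57BL/6J, *Nav1* KO and BTBR, against 1.22%, 0.549% and 1.30% of cortical excitatory nuclei and 3.62%, 0.795% and 1.53% of glia. No member was found in 13.2%, 7.41% and 11% of striatal-type nuclei, in 51.2%, 57% and 54.6% of cortical excitatory nuclei and in 57.8%, 73.3% and 66.6% of glia. Cortical excitatory nuclei that held any member thus held 1 or 2 of them in nearly all cases, whereas striatal-type nuclei often held more.

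Glia served as the reference for low levels, since astrocytes, oligodendrocytes and microglia are not known for high levels of these genes. In C57BL/6J the members were in glia at 0.182 (*Adora2a*) to 0.412 (*Gng7*) of their striatal-type level, with a median of 0.274. In *Nav1* KO this was 0.0572 (*Rgs9*) to 0.142 (*Pde1b*), median 0.114, and in BTBR 0.0860 (*Rgs9*) to 0.177 (*Adcy5*), median 0.145. All 9 members were at least 2-fold lower in glia in each library, where 2.3%, 4.49% and 4.05% of genes were in C57BL/6J, *Nav1* KO and BTBR. The 16 class markers, with medians of 0.304, 0.110 and 0.148, had the same pattern across libraries as the members.

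**Figure D2:**
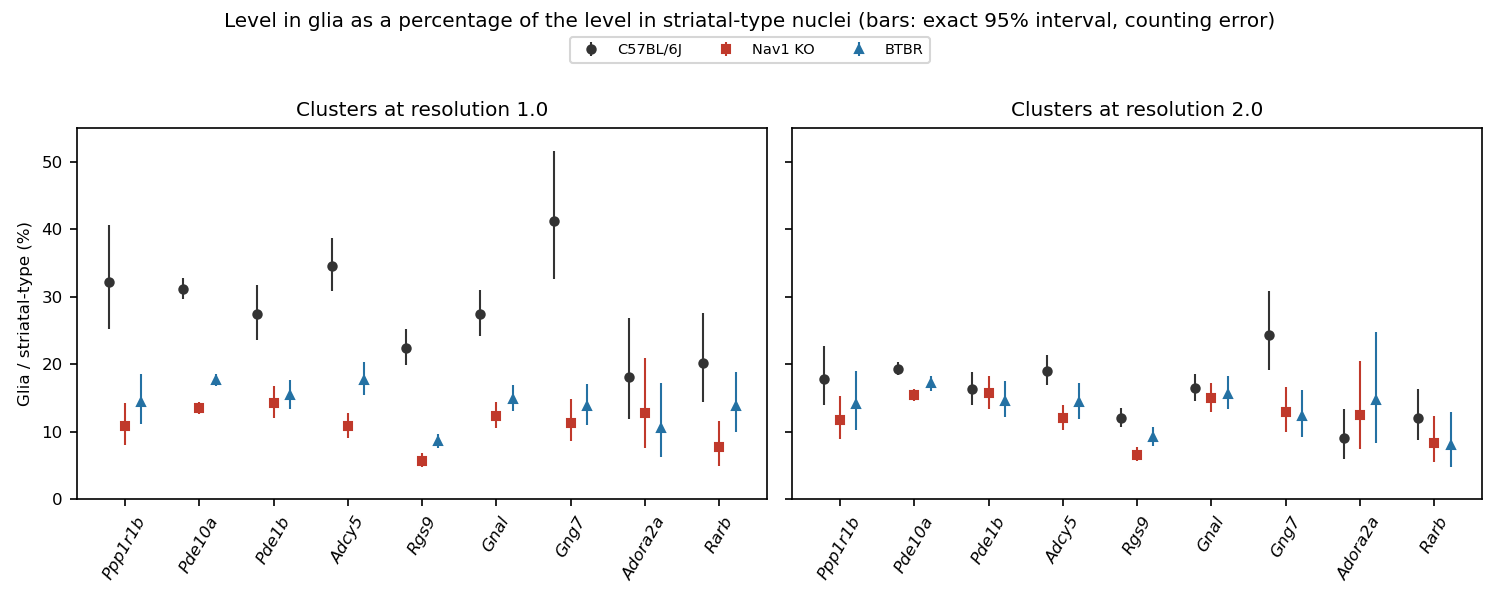
Level of each gene in glia (astrocytes, oligodendrocytes and microglia summed) as a percentage of its level in striatal-type nuclei, with clusters at resolution 1.0 and 2.0; bars are exact 95% intervals for counting error. At resolution 1.0 the C57BL/6J percentages lie above those of *Nav1* KO and BTBR for all 9 genes, and at resolution 2.0 the libraries lie closer together.

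With the finer clusters the C57BL/6J median was 0.165, against 0.125 in *Nav1* KO and 0.144 in BTBR. The levels of the members in glia themselves were also highest in C57BL/6J. *Rgs9* was at 86.1 CPM in C57BL/6J glia, 31.2 CPM in *Nav1* KO and 52.9 CPM in BTBR, *Adcy5* at 101, 39.8 and 52.1 CPM and *Gnal* at 81.6, 45.0 and 56.0 CPM. In *Nav1* KO glia 8 of 9 members were at least 1.5-fold lower than in C57BL/6J glia (9.17% of all genes), with a median ratio of 0.584, and in BTBR 4 of 9 (8.24% of all genes), with a median of 0.687. Summed over all kept nuclei the 9 members made up 1147 CPM in C57BL/6J, 741 CPM in *Nav1* KO and 851 CPM in BTBR, and the glial level was highest in the library with the most member RNA and the most striatal-type nuclei. How much of the glial or cortical level is free RNA was not tested.

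Most members were no higher in cortical excitatory neurons than in glia. The cortical excitatory level was below the glial level, with its interval below 1, for 7 of 9 members in C57BL/6J (25.4% of all genes), 5 of 9 in *Nav1* KO (31.1%) and 6 of 9 in BTBR (30.6%). *Adora2a* in *Nav1* KO is among these from 43 UMIs, under the minimum of 50. At resolution 2.0 the counts were 8, 6 and 4. *Gnal* was an exception in 2 libraries, at 1.42 times the glial level in *Nav1* KO (1.23–1.65) and 1.40 times in BTBR (1.24–1.57; 1.12, 0.969–1.30 at resolution 2.0), while it was 0.971 times in C57BL/6J (0.859–1.10). *Pde10a* was at 1.42 times in *Nav1* KO (1.34–1.5) and 1.20 times in BTBR (1.15–1.26), and at 0.953 times in C57BL/6J (0.907–1.00). At resolution 2.0 *Pde10a* in BTBR was at 418 CPM in cortical excitatory nuclei (410–427) and 410 CPM in glia (387–433). The members with an interval above 1 then numbered 2 in *Nav1* KO and 0 in BTBR. *Rgs9* was at 0.439, 0.753 and 0.505 of the glial level, and *Adora2a* at 0.379, 0.185 and 0.480.

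Cortical interneurons carried somewhat more of some members than excitatory neurons. *Rgs9* was 1.86 times higher in C57BL/6J (1.60–2.17), 1.71 times in *Nav1* KO (1.40–2.08) and 2.19 times in BTBR (1.89–2.53), and *Rarb* 2.04, 1.99 and 2.29 times. Of the members tested, 2 (C57BL/6J), 0 (*Nav1* KO) and 3 (BTBR) were at least 2-fold higher, where 6%, 5.85% and 4.9% of all genes were. At resolution 2.0 these counts were 5, 0 and 1. The interneuron levels of *Rgs9*, at 70.5, 40.3 and 58.5 CPM, were close to the glial levels of the same libraries.

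Within the cortical excitatory class, clusters resembling layer 2/3, the middle layers and layer 6 were compared with the other excitatory nuclei. *Gnal* was higher in the layer 2/3-like nuclei of each library, at 95 CPM in C57BL/6J, 82.8 CPM in *Nav1* KO and 96.8 CPM in BTBR. These were 1.31 (1.18–1.45), 1.56 (1.40–1.73) and 1.38 times (1.24–1.53) the level of the other excitatory nuclei. The intervals lay above those of glia in *Nav1* KO and BTBR and overlapped them in C57BL/6J. The 1.5-fold line was passed in *Nav1* KO alone, where 2.23% of all genes were past it, beside 2.29% in C57BL/6J and 3.04% in BTBR. An excitatory cluster without a layer name had more *Gnal* than the layer 2/3-like nuclei in C57BL/6J (119 CPM) and BTBR (105 CPM). In *Nav1* KO such clusters were at 67.5 and 68.8 CPM, below the layer 2/3-like level. In the middle layer-like nuclei *Gnal* was at 0.579, 0.505 and 0.494 of the other excitatory nuclei, *Rgs9* at 0.512, 0.534 and 0.446, and *Gng7* at 0.543, 0.497 and 0.493. There 4 of the members tested were at least 1.5-fold lower in each library, where 6.51%, 6.25% and 7.32% of all genes were.

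In the layer 6-like nuclei *Rgs9* was at 51.6 CPM in C57BL/6J, 42.2 CPM in *Nav1* KO and 40.3 CPM in BTBR, 1.44 (1.19–1.74), 2.03 (1.65–2.49) and 1.62 times (1.29–2.02) the other excitatory nuclei. *Ppp1r1b* was at 16.4, 21.6 and 15.0 CPM, 1.63 (1.14–2.29), 2.92 (2.13–3.94) and 1.38 times (0.938–1.98). At least 1.5-fold higher were 1 of 9, 2 of 8 and 1 of 8 members tested, where 9.82%, 11.6% and 9.5% of all genes were. *Drd1*, which layer 6 neurons are known to carry, was at 53.1, 54.9 and 36.1 CPM in these nuclei, and at 8.44 to 14.9 CPM in the layer 2/3 and middle layer-like nuclei. Excitatory clusters without a layer name reached 43.0 CPM of *Drd1* in C57BL/6J, 17.8 CPM in *Nav1* KO and 40.1 CPM in BTBR, there above layer 6. Glia were at 31.7, 19.6 and 17.3 CPM of *Drd1*. The *Rgs9* level of layer 6-like nuclei was below that of glia in C57BL/6J (86.1 CPM) and BTBR (52.9 CPM) and above it in *Nav1* KO (31.2 CPM). It was not the highest among excitatory clusters. Clusters without a layer name reached 74.4 and 57.3 CPM of *Rgs9* in C57BL/6J, 44.8 CPM in *Nav1* KO and 64.1 CPM in BTBR, while others were lower. *Ppp1r1b* was at 22.5, 14.4 and 14.7 CPM in glia, above the layer 6-like level in C57BL/6J and below it in the other libraries. A BTBR excitatory cluster without a layer name had 18.9 CPM of *Ppp1r1b*, above the layer 6-like level there. Such clusters of C57BL/6J and *Nav1* KO were below it.

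**Figure D3:**
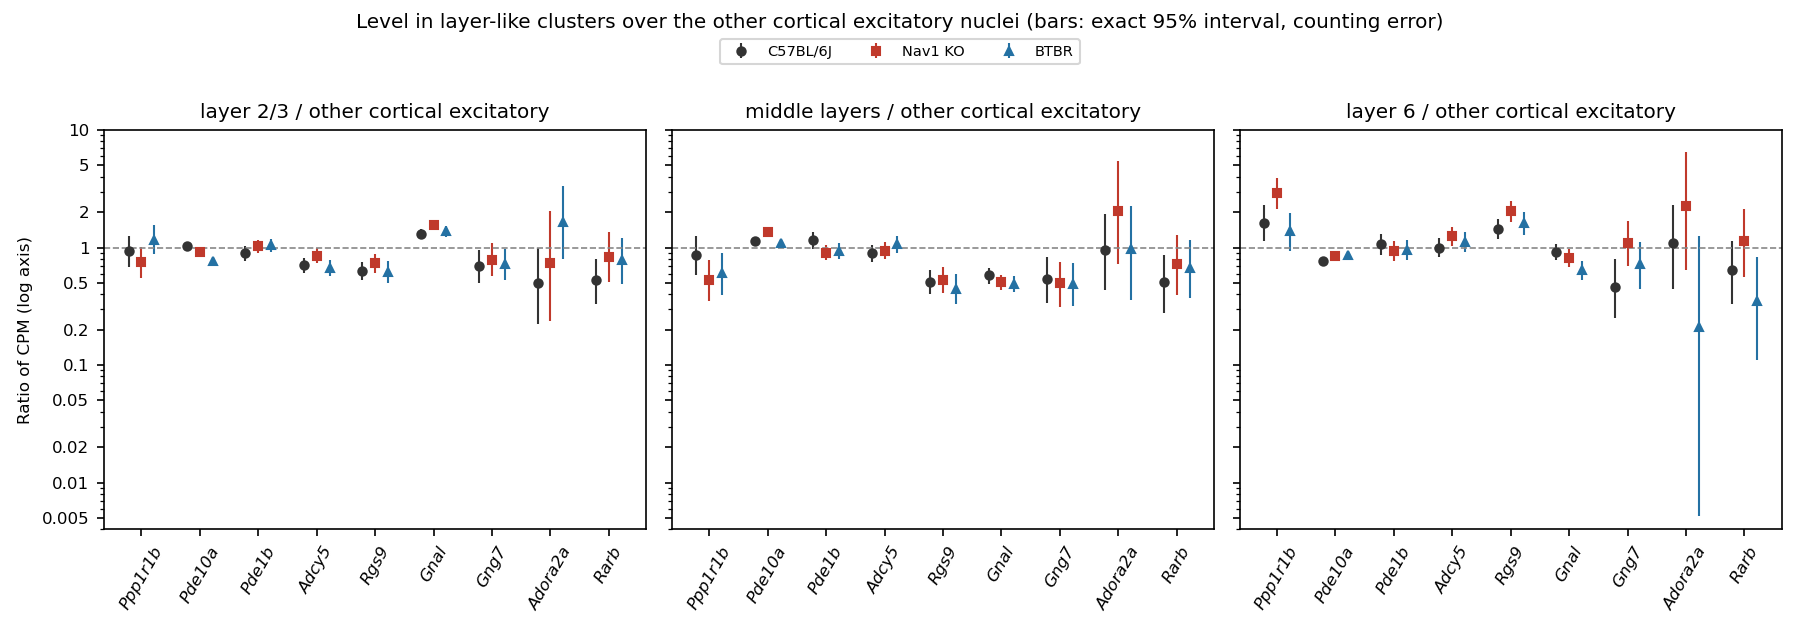
Ratio of CPM (log axis) of each gene in layer 2/3, middle layer and layer 6-like clusters over the other cortical excitatory nuclei of the C57BL/6J, *Nav1* KO and BTBR libraries; the dashed line marks 1 and bars are exact 95% intervals for counting error. *Gnal* lies above 1 in layer 2/3 and near 0.5 in the middle layers in all 3 libraries, and the points of *Ppp1r1b* and *Rgs9* lie above 1 in layer 6, with the *Ppp1r1b* interval of BTBR reaching below 1.

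The adenosine receptor of the list is known to mark the neurons with D2 receptors, so striatal-type nuclei with a UMI of *Drd1* and none of *Drd2* (Drd1-type) were set against those with the reverse (Drd2-type). There were 439, 157 and 178 Drd1-type and 138, 47 and 58 Drd2-type nuclei in C57BL/6J, *Nav1* KO and BTBR, and 1240, 237 and 475 nuclei with neither. The peptide genes, which the split did not use, parted as known for the 2 pathways. *Penk* was at 934, 1153 and 1045 CPM in Drd2-type nuclei against 108 to 149 CPM in Drd1-type nuclei, and *Tac1* at 65.1 to 76.1 CPM against 245 to 505 CPM.

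*Adora2a* was at 126 CPM in C57BL/6J Drd2-type nuclei, from 66 UMIs, and at 15.3 CPM in Drd1-type nuclei, from 29 UMIs, a ratio of 8.22 (5.24–13.2). In *Nav1* KO the levels were 94.6 CPM from 16 UMIs and 1.54 CPM from 1 UMI, a ratio of 61.3 (9.52–2571). BTBR had 112 CPM from 22 UMIs and 3.56 CPM from 2 UMIs, a ratio of 31.4 (7.71–275). The direction was the same in each library, and with so few UMIs in the Drd1-type nuclei the intervals in *Nav1* KO and BTBR each span more than a 10-fold range. In C57BL/6J the ratio at resolution 2.0 was 9.61 (5.05–19.8).

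No other member differed between the types in the same direction past its interval in all 3 libraries. *Pde10a* was at 1.15 (1.07–1.23), 1.09 (0.974–1.21) and 1.14 (1.03–1.27), and *Adcy5* at 0.952 (0.797–1.13), 0.885 (0.654–1.18) and 0.992 (0.748–1.30). *Ppp1r1b* was lower in Drd2-type nuclei of *Nav1* KO (0.498, 0.256–0.891) and not in C57BL/6J (1.12, 0.788–1.57) or BTBR (1.01, 0.632–1.57). *Gng7* was 1.53 times higher in C57BL/6J (1.10–2.09), which made 2 of 9 members past 1.5-fold there, with *Adora2a*, where 3.56% of genes were past it. At resolution 2.0 *Gng7* was at 1.13 (0.736–1.71), which left *Adora2a* alone, and *Gng7* was under 1.5 in 7 further alternatives. For *Rarb* the ratios were 1.46 (1.02–2.07), 0.676 (0.293–1.39) and 0.615 (0.289–1.20) in the same order of libraries, so that in BTBR it was past 1.5-fold lower with an interval that holds 1. *Gnal* was lower in Drd2-type nuclei of BTBR (0.713, 0.532–0.943), and its intervals held 1 in the other libraries.

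**Figure D4:**
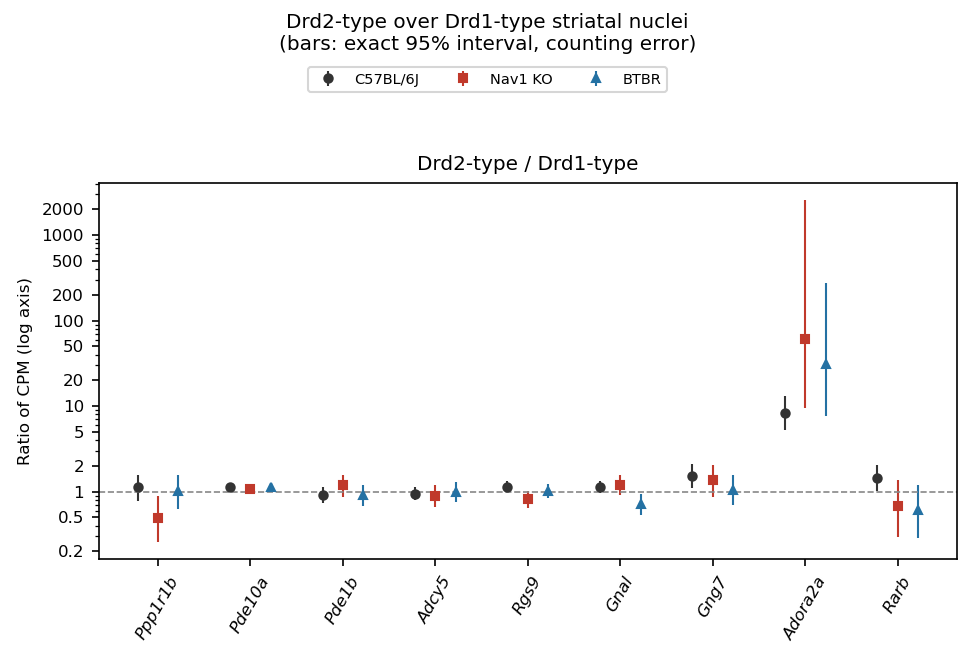
Ratio of CPM (log axis) of each gene in Drd2-type over Drd1-type striatal nuclei of the C57BL/6J, *Nav1* KO and BTBR libraries; the dashed line marks 1 and bars are exact 95% intervals for counting error. *Adora2a* lies above 5 in all 3 libraries, and the other 8 genes lie between 0.498 and 1.53.

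Whether the knockout or strain differed from C57BL/6J within striatal-type nuclei depended on how finely the nuclei were clustered. At resolution 1.0, *Gng7* was 2.12 times higher in *Nav1* KO (1.79–2.50) and *Ppp1r1b* 1.90 times (1.61–2.24), and the other members were at 0.906 (*Adora2a*, 0.675–1.20) to 1.49 (*Pde1b*, 1.34–1.65). These 2 of 9 members were past 1.5-fold higher, where 3.6% of genes were. The median was 1.39 over the members, 0.909 over all genes tested and 1.35 over the 16 class markers. At resolution 2.0, the same comparison gave 1.14 for *Gng7* (0.943–1.38), 0.928 for *Ppp1r1b* (0.775–1.11), 0.669 for *Rgs9* (0.615–0.726), 0.657 for *Gnal* (0.594–0.726) and 0.405 for *Adora2a* (0.298–0.544). No member was then 1.5-fold higher (6.55% of genes) and 3 were 1.5-fold lower (*Adora2a*, *Gnal* and *Rarb*), where 7.99% of genes were. The medians were 0.671 over the members, 0.957 over all genes tested and 0.715 over the class markers.

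BTBR gave the same picture. At resolution 1.0, *Gng7* was at 2.16 times the C57BL/6J level (1.84–2.52) and *Rgs9* at 1.61 times (1.5–1.72), 2 of 9 members past 1.5-fold higher, where 7.88% of genes were. At resolution 2.0, *Rgs9* was at 0.993 and *Gng7* at 1.55 (1.29–1.85), which left 1 member 1.5-fold higher (10.9% of genes), and *Adora2a* was at 0.496 (0.368–0.662), the 1 member 1.5-fold lower (6.97% of genes). The member medians were 1.26 and 0.877 at the 2 resolutions, those of all genes tested 1.01 and 1.05, and those of the class markers 1.13 and 0.777. The member medians thus changed in the same direction as those of the class markers. Between the resolutions striatal-type *Slc17a7* went from 377 to 189 CPM in C57BL/6J, 351 to 348 CPM in *Nav1* KO and 322 to 270 CPM in BTBR. C57BL/6J thus had the most *Slc17a7* of the libraries at resolution 1.0 and the least at 2.0. What made the ratios change was not tested. Both comparisons use the same C57BL/6J library. *Gng7* was the member whose ratio was at or above 1 at both resolutions in both comparisons, and its interval excluded 1 at both in BTBR alone, where it was at 0.947 at a resolution of 0.5 and 0.993 with the members among the variable genes.

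**Figure D5:**
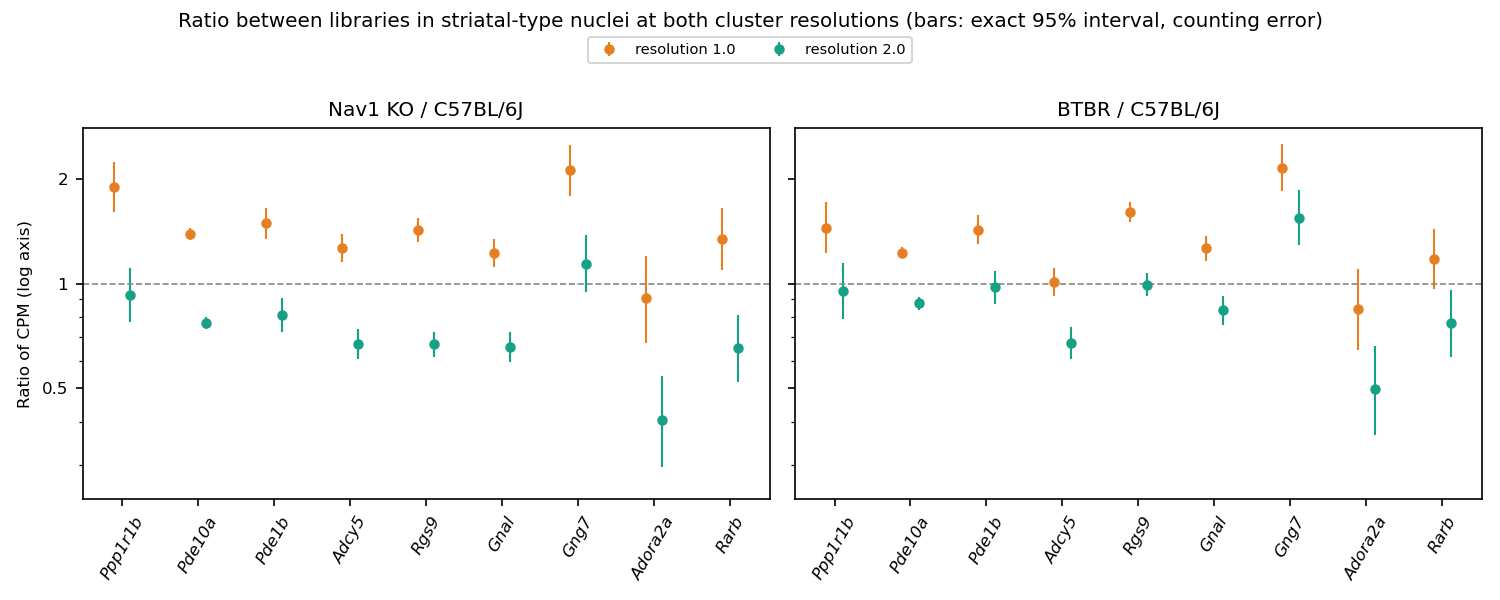
Ratio of CPM (log axis) of each gene in striatal-type nuclei of *Nav1* KO (left) and BTBR (right) over C57BL/6J, with clusters at resolution 1.0 and 2.0; the dashed line marks 1 and bars are exact 95% intervals for counting error. For all 9 genes in both panels the ratio is lower at resolution 2.0.

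Other genes of the pathway were counted from a list of 81, of which 76 were tested in all 3 libraries. Of these, 13 were at least 2-fold higher in striatal-type than in cortical excitatory nuclei in all 3 libraries and 0 were 2-fold lower, where 1.99% and 0.268% of all genes tested were. The list median was 1.19, 1.31 and 1.17 in C57BL/6J, *Nav1* KO and BTBR. Receptors were the family with the largest number of these, 6 of the 13, from 12 receptors tested. Among them were *Drd1*, *Drd2* (ratios of 10.1, 48.9 and 18.5), *Gpr6*, an orphan receptor of D2-type neurons (9.98, 32.0 and 14.6), the serotonin receptor *Htr1b* and the glutamate receptor *Grm4*. The striatal-type level of *Drd2* in C57BL/6J was 29.4 CPM at resolution 1.0 and 59.1 CPM at 2.0. In *Nav1* KO it was 41.1 and 38.8 CPM, and in BTBR 39.3 and 44.0 CPM. Gaps between libraries in the ratios of this list were not checked at resolution 2.0.

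Among 17 further G protein genes *Ric8b*, a chaperone of the Golf α subunit, was the one past 2-fold in all 3 libraries, at 2.53 (2.26–2.84), 3.09 (2.58–3.67) and 3.09 (2.64–3.60). None of 7 further adenylyl cyclases was, and their median ratio was 0.869, 0.495 and 0.576. Of 10 further phosphodiesterases *Pde1c* (9.57, 20.6 and 10.5) and *Pde7b* (3.30, 6.15 and 5.48) were, and of the RGS proteins and their partners *Rgs10*, *Rasd2* and *Rasgrp2*. No gene of the 15 listed under kinase and phosphatase, among them those of protein kinase A and phosphatase 1, was past 2-fold in all 3 libraries. Of 6 retinoid genes tested *Rxrg*, a partner receptor of retinoic acid receptors, was higher, at 8.53, 13.2 and 18.5.

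The genes most like the members were sought among 7526 genes by Pearson's r of log2(CPM + 5) with the mean of the 9 members over 30 points, 10 cell classes in each of 3 libraries, as a description. *Gprin3*, which encodes a G protein-regulated inducer of neurite outgrowth (r = 0.932), and the long non-coding RNA *Mhrt* (0.929) came first, and the 10 most alike also held *Six3*, *Ccdc187*, *Scn4b*, *Gm10848*, *Syndig1l*, *Ric8b* and *Rasd2* (0.886 to 0.861). *Six3* and *Rasd2* were also among the markers that named the striatal-type class, and the cell classes were those of resolution 1.0. Each member against the mean of the other 8 had an r between 0.787 (*Rarb*) and 0.927 (*Pde1b*), and classes of 1 library share its depth and free RNA.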

How the data were processed

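For each of 3 libraries the authors deposited filtered counts, made with Cell Ranger 6.0.0 and the mm10 reference per the submitters' processing notes, and the values are whole numbers of UMIs. No column was left without a sample. The methods describe 1 merged clustering, whereas here each library was clustered on its own, so that the purity of a class can differ between libraries.

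Genes found in at least 3 nuclei were used, and nuclei were kept from 200 genes upward and below 10% of mitochondrial counts. Counts were scaled to 10000 per nucleus and logged. From 2000 variable genes, members left out, 30 principal components and 20 neighbors gave Leiden clusters at a resolution of 1.0 (2.0 and 0.5 as alternatives) in scanpy 1.11.5 (Python 3.11.15, numpy 2.4.6, scipy 1.17.1, pandas 2.3.3, matplotlib 3.10.9). A cluster took the marker list with the highest median log2 fold over the other clusters if that was at least 1 and at least 3 markers were detected. Outside the excitatory class, a class marker also had to be among the 10 leading genes. No other class could hold more of these. Clusters with at least 5 mitochondrial or ribosomal protein genes among the 10 were left unnamed, as were those meeting no rule. This left out clusters of 1727 (C57BL/6J), 927 (*Nav1* KO) and 1733 nuclei (BTBR), with *Slc17a7* at 695, 893 and 847 CPM. Excitatory clusters were named where *Slc17a7* and *Slc17a6* exceeded *Gad1* and *Gad2* by 10-fold and layers at a median log2 fold of 0.75, limits set after the data were seen. Lists were striatal medium spiny neuron, excitatory neuron, cortical layers, cortical interneuron, olfactory bulb neurons, astrocyte, oligodendrocyte and precursor, microglia, vascular, meningeal fibroblast, ensheathing glia and ependymal. Scrublet called 1, 1 and 0 doublets in the C57BL/6J, *Nav1* KO and BTBR libraries and so was not usable as a filter, and no nucleus was removed.

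UMIs were summed per class and library and divided by all UMIs of those nuclei (CPM). Intervals are exact at 95% (Poisson for CPM, Clopper-Pearson for shares, binomial split for ratios) and cover counting error only, and a count of 0 takes 3 counts as its limit. Ratios were computed for all genes with at least 50 UMIs in both classes together, with 2-fold between classes and 1.5-fold between libraries, layers and types as the sizes counted. The ratio step was tested on simulated data. The genes named are the 9 members, the genes of the pathway list past 2-fold in all 3 libraries, the 10 genes most like the members with at least 50 CPM in 1 class, and markers that describe a class. The members and the lists were chosen with earlier results of these data known. Counts and medians over lists cover every listed gene, and not every listed gene is reported by name.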

Additional observations from a re-analysis of the deposited data

How the results depend on the processing

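Members past 2-fold in striatal-type over cortical excitatory nuclei and at or under 0.5 in glia numbered 9 of 9 in each library under every alternative that gave a value, and single class ratios stayed between 2.14 and 56.4 in 243 of 243. Clustering the libraries together with 10 principal components at a resolution of 0.3, after the methods, gave no striatal-type class in any library and so no value. The share of striatal-type nuclei in C57BL/6J (12.6%) was 9.39% with the libraries merged, 6.77% at resolution 2.0, 11.9% at resolution 0.5, 11.3% with the members among the variable genes, 11.5% without the 10% highest doublet scores, 10.1% with a mitochondrial limit of 5%, 11.4% with at least 500 genes and 7.05% for nuclei with no *Slc17a7* UMI. In *Nav1* KO (3.17%) it was 3.57% at resolution 2.0 and 1.79% with no *Slc17a7* UMI. In BTBR (4.83%) the same 8 settings gave 4.30%, 3.93%, 11.7%, 8.24%, 3.66%, 4.21%, 7.28% and 3.08%.

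For *Nav1* KO over C57BL/6J in striatal-type nuclei, 2 members were 1.5-fold higher and 0 lower. Merging gave 1 higher and 1 lower, resolution 2.0 gave 0 and 3, division by the median over all genes gave 5 higher, and division by the median of the other striatal markers 1 higher. At resolution 2.0 the direction turned for *Ppp1r1b* (0.928), *Pde10a* (0.771), *Pde1b* (0.811), *Adcy5* (0.671), *Rgs9* (0.669), *Gnal* (0.657) and *Rarb* (0.653). Merging turned *Adcy5* (0.902), *Rgs9* (0.966), *Gnal* (0.893) and *Rarb* (0.938), division by the striatal markers turned *Adcy5* (0.932), *Gnal* (0.903) and *Rarb* (0.991), and leaving out nuclei with a *Slc17a7* UMI turned *Rarb* (0.886).

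For BTBR over C57BL/6J, 2 were higher and 0 lower. Merging and division by the striatal markers each gave 1 higher. Resolution 2.0, the mean of each nucleus's CPM and no *Slc17a7* UMI each gave 1 higher and 1 lower. Resolution 0.5 and members among the variable genes each gave 0 higher and 7 lower, at least 500 genes gave 0 and 1, and leaving out high doublet scores gave 4 higher. At resolution 2.0, resolution 0.5, with the members variable and with at least 500 genes, *Ppp1r1b* was at 0.955, 0.614, 0.654 and 0.996, *Pde10a* at 0.877, 0.612, 0.657 and 0.868, *Pde1b* at 0.975, 0.674, 0.712 and 0.981, and *Gnal* at 0.838, 0.548, 0.571 and 0.878. *Gnal* was at 0.964 with no *Slc17a7* UMI. *Rgs9* was at 0.993, 0.609 and 0.665 in the first 3 of these settings, and *Gng7* at 0.947 at resolution 0.5 and 0.993 with the members variable.

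For Drd2-type over Drd1-type nuclei, 2 members were 1.5-fold higher in C57BL/6J, and 1 was under 8 alternatives, *Adora2a* staying above 1 in all. These were merging, resolution 2.0, resolution 0.5, members variable, at least 500 genes, the mean of each nucleus's CPM, a split by peptide genes and no *Slc17a7* UMI. In *Nav1* KO the last gave 2 in place of 1. *Pde10a* in C57BL/6J was at 0.994 at resolution 2.0 and 1.00 with the peptide split, and *Gng7* at 0.972 with no *Slc17a7* UMI. The cause of these changes was not tested. The settings on *Slc17a7* UMIs and on division by striatal markers were chosen after seeing the data. In Drd1-type nuclei of *Nav1* KO and BTBR *Adora2a* rests on 1 or 2 UMIs. No paired analysis was possible because each group is 1 pooled library.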

Other observations

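Outside neurons, *Rarb* and *Adcy5* were measured in nuclei resembling meningeal fibroblasts. *Rarb* was at 32.9 CPM in 524 such nuclei of C57BL/6J (22.5–46.4), 19.2 CPM in 1272 nuclei of *Nav1* KO (15.0–24.3) and 17.5 CPM in 832 nuclei of BTBR (12–24.5). In glia of the same libraries it was at 11.8 (8.58–15.8), 6.04 (4.05–8.68) and 9.52 CPM (7.25–12.3), so the intervals did not overlap in C57BL/6J and *Nav1* KO and overlapped slightly in BTBR. *Adcy5* was at 109 CPM in these nuclei of C57BL/6J (89.1–132), 68.6 CPM in *Nav1* KO (60.4–77.7) and 92.1 CPM in BTBR (79.0–107), against 101, 39.8 and 52.1 CPM in glia. Both stayed below their level in striatal-type nuclei of the same library.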
